A study of Mus musculus with 6 samples.

Results

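The collagen genes of the mouse were examined in airway epithelial cells given transforming growth factor β1 (TGF-β1). Members were the 42 genes of a list of mouse collagen chains that were reached by at least 1 array probe through its RefSeq accession, out of 22910 genes on the array. They were sorted by what the protein forms, namely 11 fibrillar, 9 network, 4 beaded filament, 1 anchoring fibril, 9 FACIT (collagens that sit on the surface of fibrils), 4 transmembrane and 2 multiplexin (basement membrane collagens that carry heparan sulphate chains or release fragments) genes and 2 others. The cells were mouse airway organoids (MAOs) from C57BL/6 lungs, dissociated and grown as a flat layer (2D-MAOs). TGF-β1 was added on day 3 to 3 of the 6 cultures and all were collected on day 7. Controls and TGF-β1-treated cultures were both kept from day 3 in medium lacking A83-01, which blocks the TGF-β receptor, and noggin, which blocks bone morphogenetic proteins. The methods give no concentration for the array cultures, and refer for plating to wells coated with type I collagen protein, whose own RNA an array of the cells does not read. RNA of each culture was hybridised with 1 dye to 1 Agilent mouse array, and the replicates are described as biological.

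Collagens are secreted proteins built from chains wound into a triple helix. Fibrillar collagens form the ropes of connective tissue, type IV and type VIII collagens form sheets such as the basement membrane under an epithelium, and type VII and type XVII collagens fasten basal cells to the tissue beneath. TGF-β1 is a known inducer of collagen genes in fibroblasts, and airway epithelium in the lung rests on a type IV collagen sheet.

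The layer carried an epithelial profile. Of 18 markers of airway and lung epithelium 15 were well above background on all 6 arrays, among them Epcam, Cdh1, Krt8, Krt18 and Nkx2-1, whereas Muc5ac, Muc5b and Sftpc were so on no array. Between 54.96% and 59.03% of probes were well above background and no spot was saturated. TGF-β1 replicate 3 lay further from the other TGF-β1 arrays than from the controls. Over all tested genes its Euclidean distance in log2 signal was 61.1 and 62.3 to the former, against 54.4 to 60.9 to the latter. Distances among the other arrays were not taken. Replicate 3 of both groups lay in row 2 of the single slide and the other 4 arrays in row 1. Results that rest on this array are therefore given with and without it.

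RefSeq promoter windows of GRCm38.p6 existed for 33 of the 42 members (36 windows) and for 6 of the 7 genes called higher below. The 250 bases before the start of these 6 are shown because the groups differed at these genes. Capitals mark the SMAD box CAGAC, the letters bound by the transcription factors of the TGF-β pathway, and the GC box GGGCGG, each on either strand.
Col1a2, chr6:4505368-4505617, plus strand: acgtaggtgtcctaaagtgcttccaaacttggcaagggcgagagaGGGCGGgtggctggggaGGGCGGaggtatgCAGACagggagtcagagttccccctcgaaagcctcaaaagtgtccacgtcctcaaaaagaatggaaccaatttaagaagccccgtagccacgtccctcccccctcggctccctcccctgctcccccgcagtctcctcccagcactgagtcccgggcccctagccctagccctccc
Col5a3, chr9:20815068-20815317, minus strand: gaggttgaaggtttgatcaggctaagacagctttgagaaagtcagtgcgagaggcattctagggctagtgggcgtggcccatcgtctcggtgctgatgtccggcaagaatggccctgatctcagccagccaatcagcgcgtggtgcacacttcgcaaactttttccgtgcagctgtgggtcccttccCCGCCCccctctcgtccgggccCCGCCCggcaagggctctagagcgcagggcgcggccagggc
Col7a1, chr9:108953336-108953585, plus strand: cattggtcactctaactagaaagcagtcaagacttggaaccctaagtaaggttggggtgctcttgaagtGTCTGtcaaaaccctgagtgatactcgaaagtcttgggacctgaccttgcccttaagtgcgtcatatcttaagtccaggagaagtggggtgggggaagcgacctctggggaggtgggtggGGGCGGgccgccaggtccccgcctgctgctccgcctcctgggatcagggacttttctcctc
Col8a2, chr4:126286544-126286793, plus strand: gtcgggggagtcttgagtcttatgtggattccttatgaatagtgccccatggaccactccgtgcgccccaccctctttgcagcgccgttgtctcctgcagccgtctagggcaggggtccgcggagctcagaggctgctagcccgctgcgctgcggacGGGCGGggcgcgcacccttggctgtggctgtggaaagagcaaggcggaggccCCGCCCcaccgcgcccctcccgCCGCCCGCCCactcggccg
Col25a1, chr3:130180595-130180844, plus strand: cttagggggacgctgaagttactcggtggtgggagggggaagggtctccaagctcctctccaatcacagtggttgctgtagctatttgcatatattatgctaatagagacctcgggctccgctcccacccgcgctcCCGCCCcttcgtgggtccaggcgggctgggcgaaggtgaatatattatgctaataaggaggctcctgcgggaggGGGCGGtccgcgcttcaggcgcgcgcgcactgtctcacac
Col27a1, chr4:63215162-63215411, plus strand: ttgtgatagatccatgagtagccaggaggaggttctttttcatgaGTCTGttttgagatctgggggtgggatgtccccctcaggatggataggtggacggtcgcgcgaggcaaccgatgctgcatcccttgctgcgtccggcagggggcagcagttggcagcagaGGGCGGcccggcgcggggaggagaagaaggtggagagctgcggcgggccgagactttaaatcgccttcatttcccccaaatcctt

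The GC box occurred in all 6 windows, in 20 of the 36 collagen windows (55.6%) and in 32.7% of the 32851 windows of all genes. The SMAD box occurred in 3 of the 6, at 175 bases before the start in Col1a2, 181 in Col7a1 and 205 in Col27a1. It was about as common elsewhere, in 47.2% of collagen windows and 42.2% of all windows. The AP-1 site TGANTCA was in none of the 6, in 1 collagen window (Col6a1, 2.78%) and in 6.75% of all windows. The TATA box TATAAA was in none of the 6 and in 12.4% of all windows, and the CCAAT box CCAAT in 4 of the 6 and 33.8% of all. The palindrome GTCTAGAC was in no collagen window and in 0.167% of all. Collagen windows had a median GC content of 59.4%, against 52.4% for all windows. A match marks letters only, and factor binding was not measured.

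Of the 42 collagen genes, 28 were well above background on 1 array or more and 14 on none. Only genes that passed this mark on 3 or more of the 6 arrays were tested, and 25 members did. Of these, 17 were well above background on all 6 arrays, 6 on the 3 TGF-β1 arrays only (Col1a1, Col1a2, Col4a1, Col4a2, Col25a1 and Col27a1), and Col2a1 and Col11a2 on 4. Genes of the second kind passed through the TGF-β1 arrays alone, so a higher value there was a condition of their being tested. Among all 14345 genes tested, 66 were of that kind.

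**Figure D1:**
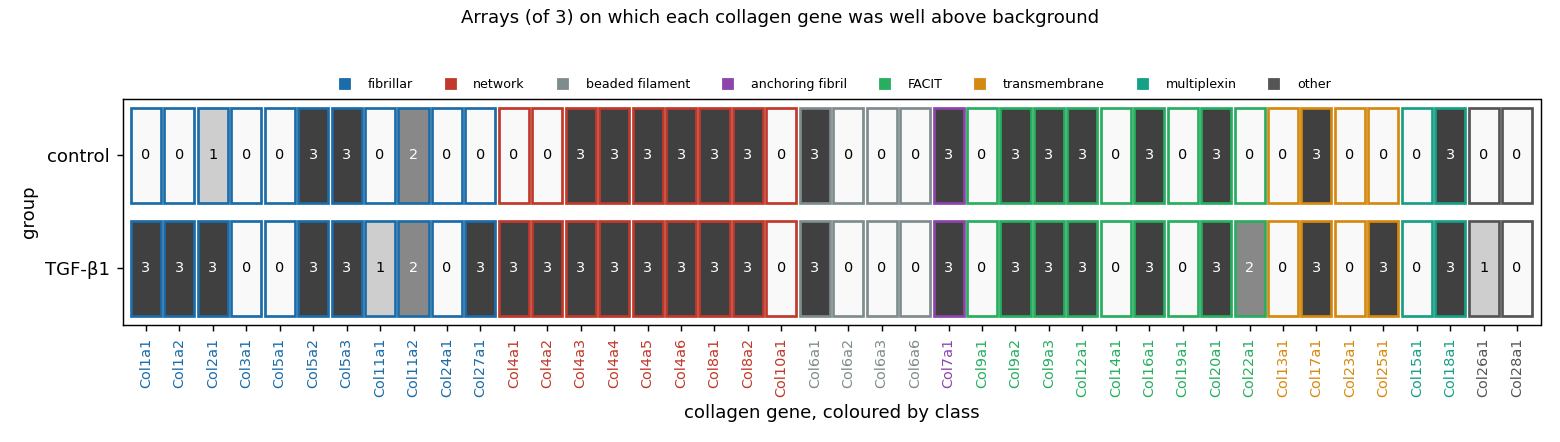
Number of arrays, of 3 in each group, on which each of the 42 collagen genes was well above background. Each column is a gene, coloured by class, the upper row is the controls and the lower row the TGF-β1-treated cultures. The 6 genes with 0 above 3 are Col1a1, Col1a2, Col4a1, Col4a2, Col25a1 and Col27a1.

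Col27a1, Col25a1, Col5a3, Col1a1, Col7a1, Col8a2 and Col1a2 rose with TGF-β1, 7 of the 25 tested, and no collagen gene was called lower by limma, where 1 (Col9a2) was lower at an unadjusted p under 0.05 and 19 were higher. At that unadjusted threshold 11.4% of all genes were higher and 10.8% lower. The called genes span fibrillar, network, anchoring and transmembrane collagens. A gene was called when its change was at least 2-fold with an adjusted p under 0.05, by limma over all genes. Over all genes 171 were called higher (1.19%) and 27 lower (0.188%). The fitted log2 fold changes of the 25 had a median of 1.28, or 1.20 with the 6 genes of unmeasured control level set at their lower bound, against -0.03 over all genes tested. Of the 25, 22 were above 0 and 3 below. Among the 17 members well above background on all 6 arrays, 3 were called (17.65%) with a median of 0.99, against 0.925% called and a median of -0.03 for the 13517 genes of all kinds so detected. A change in the number of cells of a type and a change in RNA per cell, up or down, cannot be told apart in these bulk samples.

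The groups did not overlap in 17 of the 25 tested members that were higher, for which 12.9% of all genes is the background, and in 1 that was lower (Col9a2), for which the background is 13.5%. The 17 include the 6 genes that passed the filter through the TGF-β1 arrays alone, so a lack of overlap was favoured in advance for them. With 3 arrays against 3 an exact permutation test cannot go below p = 0.1, so the p-values below come from limma.

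**Figure D2:**
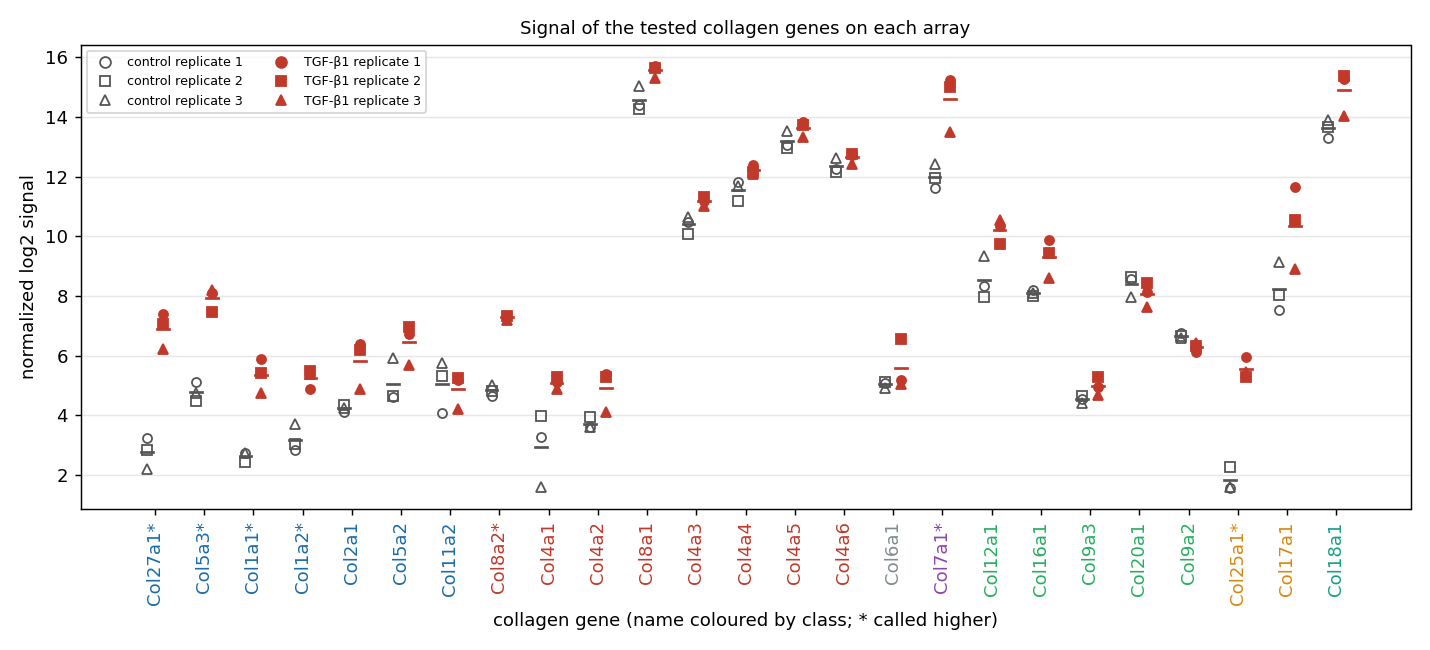
Normalised log2 signal (vertical axis) of each of the 25 tested collagen genes on every array, by class. Open grey marks are controls, red marks TGF-β1-treated cultures, the shape gives the replicate and bars are group means. All TGF-β1 marks lie above all control marks for 17 genes, and the red triangle of TGF-β1 replicate 3 is the lowest red mark for most.

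Among fibrillar collagens 4 of 7 tested members were called higher, of which Col27a1, Col1a1 and Col1a2 were detected on the TGF-β1 arrays only. Their median change was 2.07 (log2), or 1.40 with bounds for 3 of them. Col27a1, a fibrillar chain of cartilage and other developing tissues, had signals of 3.25, 2.82 and 2.20 (log2) in the controls and 7.38, 7.07 and 6.23 after TGF-β1. No control array was well above background and all TGF-β1 arrays were. In the main processing, to which every bound here is limited, the level was at least 7.57-fold higher. The fit gave a log2 fold change of 4.14 (SE 0.37, adjusted p = 0.00586 by limma).

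Type I collagen, the chief protein of fibrils, has the chains Col1a1 and Col1a2. Col1a1 read 2.74, 2.42 and 2.73 in the controls and 5.89, 5.42 and 4.74 after TGF-β1, a level at least 2.59-fold higher (log2 fold change 2.72, SE 0.28, adjusted p = 0.0091 by limma). Col1a2 read 2.84, 3.03 and 3.70 against 4.89, 5.48 and 5.38, at least 2.38-fold higher (2.07, SE 0.26, adjusted p = 0.0162). Neither was well above background on any control array. A second probe of Col1a1 read 2.70, 2.77 and 3.04 against 5.60, 5.12 and 4.56 and was called too when probes were the unit (2.26, adjusted p = 0.0119).
The call of Col1a2 was lost without control replicate 1 (adjusted p = 0.0597), control replicate 2 (0.0754) or TGF-β1 replicate 2 (0.0727), and that of Col1a1 without TGF-β1 replicate 2 (0.0515).

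Type V collagen sets the width of type I fibrils, and its chains differed. Col5a3 read 5.10, 4.49 and 4.75 in the controls and 8.12, 7.47 and 8.19 after TGF-β1, well above background on all arrays, with no overlap. It was 8.84-fold higher (log2 fold change 3.14, SE 0.24, adjusted p = 0.00316 by limma), in this fit the largest fold among members measured in both groups. The ranking did not hold in every setting. Col7a1 exceeded Col5a3 without TGF-β1 replicate 3, at 3.13 against 3.01 (log2), and with normexp background correction, at 2.54 against 1.79. Col5a2 read 4.60, 4.65 and 5.91 against 6.73, 6.97 and 5.68, so TGF-β1 replicate 3 lay below control replicate 3 (1.40, SE 0.46, adjusted p = 0.16). Col5a1, the main chain of the type, was well above background nowhere, with signals of 1.80, 1.80 and 3.22 against 3.13, 3.48 and 1.78.
A second probe of Col5a3 stayed at the floor of the scale on all 6 arrays, with means of 1.59 and 1.58, so the call rests on 1 probe.

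Among the other fibrillar chains, Col2a1, the collagen of cartilage, was 4.24 ± 0.12 (SD, n = 3) in the controls and 5.82 ± 0.82 after TGF-β1 (1.59, SE 0.38, adjusted p = 0.0934 by limma). The Col11a2 values were 4.08, 5.32 and 5.74 against 5.20, 5.26 and 4.20, overlapping throughout (-0.16, SE 0.47, adjusted p = 0.856). Col3a1, Col24a1 and Col11a1 were not tested. Col3a1, which accompanies type I collagen in soft tissue, read 1.52 to 1.54 in the controls and 1.53, 2.66 and 1.53 after TGF-β1, never well above background. Col11a1 was so on 1 TGF-β1 array.

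Network collagens were nearly all detected. Of 9 members 8 were tested, and all had fitted changes above 0 (0.30 to 2.45), with a median of 0.89, or 0.86 with 2 at their bound, and 1 was called. Col8a2, a chain of the sheet-forming type VIII collagen, read 4.66, 4.82 and 5.02 in the controls and 7.32, 7.33 and 7.21 after TGF-β1. The TGF-β1 values lay close together and all above the control values. This was 5.47-fold (log2 fold change 2.45, SE 0.13, adjusted p = 0.00124 by limma), with a 95% interval of 2.15 to 2.75. The partner chain Col8a1 read 14.40, 14.28 and 15.03 against 15.72, 15.65 and 15.32, without overlap, and missed the call (0.99, SE 0.22, adjusted p = 0.0825, interval 0.47 to 1.52). The intervals of these changes in the type VIII chains did not overlap, and their difference was not tested. With normexp background correction the changes lay closer together, at 1.21 for Col8a2 and 0.97 for Col8a1.

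Type IV collagen is the sheet of basement membranes, and its 6 genes lie as neighbouring pairs with no protein-coding gene between them. No pair had a called member. The chains found in all basement membranes, Col4a1 and Col4a2, start 21 bases apart in the RefSeq windows. Col4a1 read 3.28, 3.98 and 1.60 in the controls and 5.13, 5.28 and 4.87 after TGF-β1, with only the latter well above background (at least 2.17-fold, log2 fold change 2.14, SE 0.56, adjusted p = 0.111 by limma). Col4a2 read 3.61, 3.94 and 3.61 against 5.37, 5.27 and 4.09 (at least 1.92-fold, 1.20, SE 0.34, adjusted p = 0.128). Both were thus detected on every TGF-β1 array and on no control array.

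The chains of more specialised basement membranes were bright in both groups. Col4a3 read 10.48, 10.07 and 10.65 in the controls and 11.18, 11.33 and 11.03 after TGF-β1 (log2 fold change 0.78, SE 0.17, adjusted p = 0.0807 by limma). Its neighbour Col4a4 read 11.81, 11.19 and 11.71 against 12.38, 12.17 and 12.08 (0.64, SE 0.19, adjusted p = 0.132). Neither overlapped between groups, and the changes of this pair differed by 0.14. Col4a5 read 13.07, 12.96 and 13.55 against 13.85, 13.74 and 13.33 (0.45, SE 0.21, adjusted p = 0.257). Its neighbour Col4a6, whose start lies 1343 bases away, read 12.25, 12.15 and 12.62 against 12.73, 12.78 and 12.43 (0.30, SE 0.17, adjusted p = 0.316). In both of these chains control replicate 3 exceeded TGF-β1 replicate 3, so the groups overlapped. Col10a1, the network collagen of growth cartilage, was well above background on no array.

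The collagens that fasten epithelium to the basement membrane were read high on TGF-β1 replicates 1 and 2 and lower on replicate 3. Col7a1, the anchoring fibril, read 11.62, 11.97 and 12.43 in the controls and 15.26, 15.01 and 13.51 after TGF-β1, without overlap. It was 6.01-fold higher (log2 fold change 2.59, SE 0.46, adjusted p = 0.0484 by limma). The call was lost in 5 of the 6 fits that left out 1 array, with adjusted p from 0.0725 to 0.167. Without TGF-β1 replicate 3 the change was 3.13 (adjusted p = 0.0034). Col17a1, the transmembrane collagen of hemidesmosomes, read 7.54, 8.02 and 9.15 against 11.65, 10.55 and 8.89. TGF-β1 replicate 3 lay below control replicate 3, and the change was 2.13 (SE 0.72, adjusted p = 0.167). Without that array it was 2.86 (adjusted p = 0.0241).

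Col25a1, a transmembrane collagen known from neurons, read 1.57, 2.26 and 1.60 in the controls and 5.95, 5.30 and 5.44 after TGF-β1. It was well above background on the TGF-β1 arrays alone, at least 3.00-fold higher (log2 fold change 3.75, SE 0.25, adjusted p = 0.00238 by limma). A second probe disagreed, with 3.16, 2.98 and 1.74 against 3.54, 2.40 and 3.54 and no array well above background, so the change was seen by 1 of 2 probes. Col13a1 and Col23a1, the other transmembrane members, were well above background on no array.

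FACIT collagens had no call by limma among 5 tested members, of which 3 were higher and 1 lower at an unadjusted p under 0.05, and their median change was 0.43 (log2). Col12a1, found on the fibrils of tissue under load, read 8.35, 7.96 and 9.34 in the controls and 10.36, 9.76 and 10.56 after TGF-β1, without overlap (1.67, SE 0.38, adjusted p = 0.0837 by limma). Its second probe read 4.45, 4.94 and 5.14 against 6.35, 6.28 and 6.33 and passed the threshold when each probe was tested (1.48, adjusted p = 0.0144). Col16a1 was 8.11 ± 0.10 against 9.31 ± 0.65 (SD, n = 3), a change of 1.20 (SE 0.30, adjusted p = 0.106). Col9a3 was 4.54 ± 0.12 against 4.97 ± 0.31 (0.43, SE 0.17, adjusted p = 0.211).

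The remaining FACIT changes were below 0 and not called. Col9a2, a chain of the cartilage type IX collagen, read 6.75, 6.66 and 6.58 in the controls and 6.12, 6.32 and 6.43 after TGF-β1, without overlap (-0.37, SE 0.12, adjusted p = 0.16 by limma). Col20a1 read 8.58, 8.63 and 7.96 against 8.13, 8.45 and 7.65 (-0.31, SE 0.26, adjusted p = 0.489). Col9a1, Col14a1 and Col19a1 were well above background on no array and Col22a1 on 2 TGF-β1 arrays, too few to be tested.

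Of the multiplexins, Col18a1, the source of endostatin, read 13.30, 13.68 and 13.89 in the controls and 15.28, 15.39 and 14.04 after TGF-β1, without overlap (log2 fold change 1.28, SE 0.37, adjusted p = 0.132 by limma). Col15a1 was well above background on no array. Of the beaded filament chains of type VI collagen, Col6a1 read 5.08, 5.11 and 4.92 against 5.19, 6.56 and 5.05 (0.56, SE 0.38, adjusted p = 0.403), high on TGF-β1 replicate 2 alone. Its partners were not well above background anywhere. Col6a2 read 1.56 to 1.60 in the controls and 2.80, 1.59 and 1.59 after TGF-β1, and Col6a3 read 3.16, 1.76 and 1.82 against 2.04, 2.77 and 1.74. Col6a6 and Col28a1 were also undetected, and Col26a1 was well above background on 1 TGF-β1 array.

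**Figure D3:**
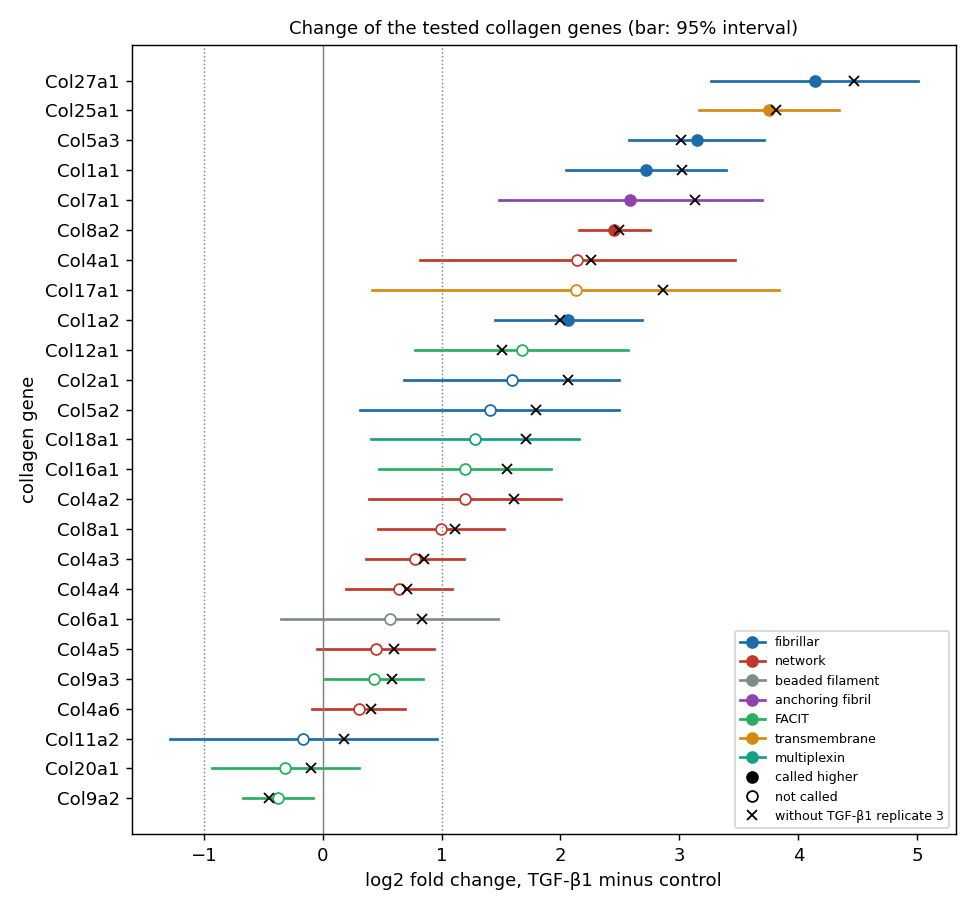
Log2 fold change, TGF-β1 minus control (horizontal axis), of the 25 tested collagen genes with 95% intervals, coloured by class; filled circles were called higher, open circles were not, crosses are the change without TGF-β1 replicate 3 and dotted lines mark 2-fold. The fit of Col7a1 moves from 2.59 to 3.13 and that of Col17a1 from 2.13 to 2.86 without that array, while that of Col8a2 moves from 2.45 to 2.49. Fitted changes of the 6 genes undetected in controls are no bounds.

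TGF-β1 replicate 3 stood low for many members. In the 22 tested members with a change above 0 it was the lowest TGF-β1 array in 18 (81.82%) and the highest in 2, Col5a3 and Col12a1. The lowest share was 58.94% among all 6563 genes with a change above 0 and 68.42% among the 171 called higher. Members differed in how much of the change of replicates 1 and 2 was seen on this array: 22.9% for Col17a1, 24.6% for Col18a1 and 48.0% for Col7a1, against 95.3% for Col8a2, 95.1% for Col25a1, 113% for Col5a3 and 133% for Col12a1. Without it 14 members were called higher and none lower, where 3.86% of all genes were called higher and 1.09% lower. All 7 were among the 14, and the others were Col17a1, Col2a1 (2.06), Col5a2 (1.80), Col18a1 (1.71), Col4a2 (1.61), Col16a1 (1.55) and Col8a1 (1.12).

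The arrays were also compared within each slide row. In row 2, with 1 array in each group and no test, TGF-β1 minus control was 4.03 (log2) for Col27a1, 3.83 for Col25a1, 3.43 for Col5a3, 2.19 for Col8a2, 2.01 for Col1a1 and 1.69 for Col1a2, but 1.08 for Col7a1 and -0.25 for Col17a1. In row 1 alone the same changes were 4.19, 3.71, 3.00, 2.58, 3.07, 2.25, 3.34 and 3.32 in that order. Col27a1, Col25a1, Col1a1 and Col1a2 were well above background on no control array, so their differences in either row are no measured folds. With the row as a block 7 members were called higher, where 1.34% of all genes were, 6 of them in common, and Col7a1 was not (adjusted p = 0.0501). The part of the slide row in these values was not tested further.

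The filter also touched them. With all 22910 genes tested, Col27a1, Col25a1, Col5a3 and Col8a2 were called, 4 of 42 members, against 0.214% of genes.

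Genes that build collagen were described by 4 lists. The background for these and for the marker lists below is all 14345 genes tested. Of those, 6563 were above 0, and 11.4% were higher and 10.8% lower at an unadjusted p under 0.05 by limma. Of 24 genes for folding and export of procollagen 23 were tested and 1 was called higher, none lower, with 20 of 23 above 0. The median of the log2 fold changes was 0.41, and 14 were higher at an unadjusted p under 0.05. The called gene was P4ha3, a prolyl hydroxylase subunit, at 3.94, 4.77 and 4.71 in the controls and 6.62, 6.86 and 5.98 after TGF-β1 (2.01, SE 0.30, adjusted p = 0.0266 by limma). The values of the chaperone Fkbp10 and the hydroxylase partner P3h4 were 1.23 (adjusted p = 0.164) and 0.84 (0.136), and that of Tmem38b, an endoplasmic reticulum channel, was -0.33 (0.443).

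Lysyl oxidase genes were among those called higher. Of 16 genes for processing and cross-linking 8 were tested, 2 were called higher and none lower, with a median of 0.81. Lox, the lysyl oxidase that cross-links fibrils, read 8.85, 8.61 and 9.64 in the controls and 12.59, 12.29 and 11.61 after TGF-β1, a change of 3.13 (SE 0.34, adjusted p = 0.011 by limma). Its relative Loxl1 read 4.73, 5.46 and 4.79 against 7.02, 7.10 and 6.17 (1.77, SE 0.30, adjusted p = 0.0425). Bmp1, which removes the tail of procollagen, was at 1.20 (adjusted p = 0.0698) and its relative Tll1 at -0.67 (0.138). The other tested lysyl oxidases were Loxl2 at 0.80 (adjusted p = 0.307) and Loxl4 at -0.51 (0.436). The proteases that remove the head, Adamts2, Adamts3 and Adamts14, were well above background on no array.

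Small leucine-rich proteoglycans, which coat fibrils, and collagen receptors had no called gene by limma, with 6 of 12 and 7 of 11 tested. At an unadjusted p under 0.05, 1 of the former was higher and 2 were lower, and 5 of the receptors were higher. Medians were 0.40 and 0.59. Among the former, decorin (Dcn) was at 1.00 (adjusted p = 0.273 by limma), biglycan (Bgn) at -0.95 (0.111) and Podn at 0.74 (0.65). All 7 tested receptors were above 0, including the integrin chains Itga2 (0.93, adjusted p = 0.13) and Itga11 (0.81, 0.142) and Adgrg1, a type III collagen receptor (0.84, 0.0165), which passed the p threshold at under 2-fold. Ddr2 and Mrc2 were well above background nowhere.

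**Figure D4:**
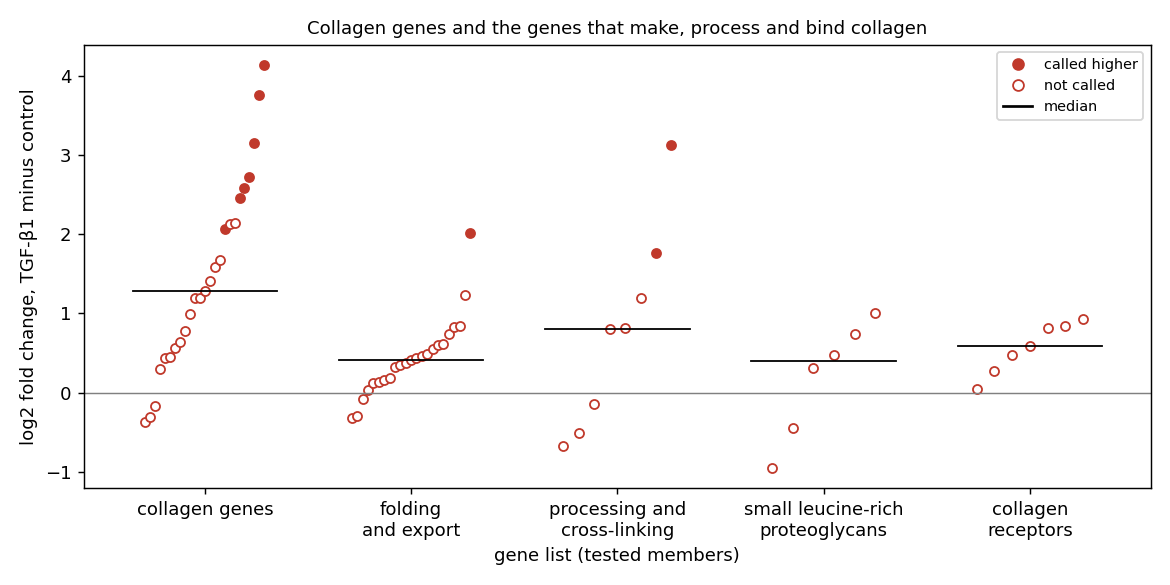
Log2 fold change, TGF-β1 minus control (vertical axis), of each tested gene in the collagen list and in 4 lists of genes that make, process, coat and bind collagen; filled circles were called higher and bars are medians. The collagen median of 1.28 lies above those of the other lists, 0.41, 0.81, 0.40 and 0.59. It includes 6 genes that were tested through the TGF-β1 arrays alone, and it is 0.99 for the 17 members well above background on all 6 arrays.

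Markers of other cells were read beside these results, since collagens are made by several. Of 18 fibroblast markers 10, among them Lum, Tcf21, Dpt and Pi16, were well above background on no array, and none of the 8 tested was called by limma, with 2 higher at an unadjusted p under 0.05. Their summed linear signal was 1201 to 1519 in the controls and 1377 to 4743 after TGF-β1, and Thy1 read 4.14, 4.67 and 4.23 against 8.19, 7.65 and 4.60 (log2 fold change 2.47, adjusted p = 0.176 by limma), low on TGF-β1 replicate 3 as many collagens were. Fbln1 was at 1.38 (adjusted p = 0.258) and Clec3b at -0.29 (0.295). Pdgfra, Fap, Mfap4 and Lsp1 were well above background on all 6 arrays. Of 13 smooth muscle and pericyte markers 5 were tested and Cnn1 was called (2.13, adjusted p = 0.0231), while Myh11, Des, Pdgfrb and Myocd were well above background nowhere. Acta2 was bright in both groups, with means of 13.69 in the controls and 13.71 after TGF-β1 (0.02, adjusted p = 0.96 by limma). Notch3 was at 0.94 (adjusted p = 0.222) and Actg2 at -0.18 (0.593). The summed signal of these was 16410 to 22770 against 17560 to 26730. The part of such cells in the collagen results was not tested.

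Of 15 tested epithelial markers Foxj1 of ciliated cells was called (1.47, adjusted p = 0.00238 by limma), and Krt5 of basal cells, whose attachment uses Col7a1 and Col17a1, was at 1.37 (adjusted p = 0.178) and Scgb1a1 of club cells at -2.27 (0.158). Krt5 read 12.68, 12.64 and 13.43 in the controls and 15.17, 14.45 and 13.23 after TGF-β1, again lowest on replicate 3. The summed epithelial signal was 356600 to 403000 against 338800 to 478300. Of mesothelial markers 3 of 7 were tested (summed signal 170000 to 190600 against 160500 to 189200) and none was called by limma, with 1 higher and 1 lower at an unadjusted p under 0.05. Bnc1 was at 2.02 (adjusted p = 0.0568), Upk1b at -1.22 (0.0849) and Msln at 0.12 (0.543), and Wt1 was undetected. Upk1b read 15.08, 15.11 and 15.02 in the controls and 14.25, 14.13 and 13.18 after TGF-β1, without overlap.

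Of endothelial markers 4 of 10 were tested (789.6 to 863.4 against 857.2 to 1356) and none was called by limma, with 1 higher at an unadjusted p under 0.05. Egfl7 was at 0.47 (adjusted p = 0.223), Esam at -0.19 (0.388) and Vwf at 0.19 (0.885), and Cdh5, Kdr and Tie1 were undetected. Of leukocyte markers 5 of 12 were tested (10630 to 12350 against 13640 to 14820), none was called by limma and 2 were higher at an unadjusted p under 0.05. Cd68 was at 0.90 (adjusted p = 0.147), Itgam at 0.43 (0.134), Fcer1g at 0.31 (0.326) and Cd3e at -0.24 (0.395), and Ptprc and Tyrobp were undetected. Csf1r was bright in both groups, with means of 12.33 in the controls and 12.34 after TGF-β1 (0.01, adjusted p = 0.984 by limma). The part of these cells was likewise not tested.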

How the data were processed

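The deposited files hold, for each spot of the 6 arrays, the intensity on a linear scale after Agilent Feature Extraction 11.0.1.1 (named in the submitters' processing notes) had subtracted the background and corrected trends, together with a mark for spots well above background. The authors normalised log2 signals by quantiles, and this was repeated here. Of 56605 probes, 56599 remained after spots marked as uneven or as outliers were removed. Accessions were matched to symbols through RefSeq (GRCm38.p6), for 32991 of 35883 probes with a RefSeq accession, 63 of them from collagen genes. A probe needed to be well above background on 3 arrays, the brightest probe stood for a gene, and limma 3.58.1 in R 4.3.3 was fitted over 14345 genes, with Benjamini-Hochberg adjustment. Log2 signals from different probes are not compared. The number of arrays limits the precision.

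A lower bound was the mean of the TGF-β1 arrays over the lowest signal marked well above background on each control array, or the gene's own signal where higher. Bounds apply to the main processing only. With normexp background the genes with bounds had log2 fold changes of 0.35 to 1.54, each below its bound. Every member was accounted for by name. Values on each array were given for called members, the largest change of each class, chains of types I, IV and V, Col6a1, Col6a3 and the 3 largest decreases. For Col6a2 the controls were given as a range, and Col6a6 was named without values. Of the other lists, called genes, the 3 largest changes and the largest opposite change were named, and genes beyond these were chosen after their values were seen. The members, gene lists and motifs were chosen with earlier results of these data known. The fit was tested on simulated data. The files hold no mean brightness of a spot, so the normexp alternative used the median.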

Additional observations from a re-analysis of the deposited data

How the results depend on the processing

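Of the 25 tested collagen genes, 7 were called higher and 0 lower, and 0 lower held in every alternative. The count higher was 4 without a filter on dim probes, 3 with genes well above background on all 6 arrays, 15 with an unadjusted p, 12 with the methods' t-test unadjusted and 1 after Benjamini-Hochberg, and 16 with array weights. Leaving out 1 array at a time gave 4 to 14, lowest without TGF-β1 replicate 2 and highest without TGF-β1 replicate 3. Slide row 1 alone, added after the data were seen as was the row as a block, gave 16. Counts of 5 to 8 came from scaling to the 75th percentile, normexp background, the mean of a gene's probes, no fold threshold, robust fitting with a trended variance prior, marked spots kept and the row as a block. In these the share of all genes called higher was 0.955% to 1.63%. With normexp 5 were called, and Col1a1 (log2 fold change 0.60, adjusted p = 0.0409 by limma) and Col25a1 (0.71, adjusted p = 0.0126) fell short of 2-fold only, while Col1a2 (0.43, adjusted p = 0.0849) missed both thresholds. The calls that were kept had log2 fold changes of 1.54 for Col27a1, 1.79 for Col5a3, 1.21 for Col8a2 and 2.54 for Col7a1. In the main fit these were 4.14, 3.14, 2.45 and 2.59. The share of all genes called higher moved as well, from 1.19% to 2.68% with an unadjusted p, 2.17% and 0.0279% with the methods' t-test before and after adjustment, 4.14% with array weights, 4.37% in slide row 1 alone, 0.214% without a filter and 1.08% with genes detected on all 6 arrays. Leaving out TGF-β1 replicate 2 gave 0.342% and leaving out replicate 3 gave 3.86%. Counted as probes, 9 of 30 collagen probes were called, from 8 genes, with no count of calls at hand over all 21213 probes tested. Col8a2 was called in all 21 alternatives.

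Col11a2, at -0.16, turned sign with array weights (0.50), slide row 1 alone (0.52), without control replicate 3 (0.18) and without TGF-β1 replicate 3 (0.18), and leaving out 1 array gave -0.65 to 0.18. The replicate block gave 6 calls (0.60% of all genes), since Col7a1 was lost (adjusted p = 0.121). The numbers did not pair the samples, as deviations from the group means of equal numbers correlated at -0.01, 0.33 and -0.05, and only control replicate 2 correlated best with its own number. Scaling to the 75th percentile moved the median change of all genes from -0.03 to -0.09. The cause of these differences was not tested. Tested members well above background on no control array were given bounds beside their fitted changes. Other members dim in the controls, such as Col5a3, Col8a2 and Col2a1, have fitted changes only.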
